A study of Mus musculus with 27 samples.

Results

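Rab GTPases are small GTP-binding proteins that act as molecular switches on membranes. Each binds to a particular compartment when loaded with GTP and recruits effectors that move, tether or fuse vesicles, and each is turned on by exchange factors and off by GTPase-activating proteins. In microglia, the phagocytes of the brain, such proteins direct endocytosis, the maturation of phagosomes that hold cell debris, and the secretion of cytokines. The genes described here are the protein-coding genes whose GENCODE symbol is Rab, a number and at most 1 letter, with counts in at least 3 of 27 libraries. They number 54 of the 56691 genes in the count table. A further 5 genes with such a symbol (Rab15, Rab17, Rab25, Rab30 and Rab44) had counts in fewer than 3 libraries and were left out. By known site of action 16 were placed as endosomal, 7 as phagosomal, 11 as secretory, 12 as ER-Golgi and 8 as other. After a filter on low counts 50 were tested, and Rab9b, Rab27b, Rab33a and Rab39b were not.

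The question of the study was whether microglia respond to intracerebral hemorrhage (ICH) in another way when gut microbes are missing. Microglia were sorted by flow cytometry from tissue around the hematoma of wild-type (WT) mice, and their RNA was sequenced. Mice given an antibiotic cocktail (ABX), germ-free mice (GF) and specific pathogen-free mice with no such treatment (SPF) each had ICH induced with collagenase and were sampled at day 7 or day 3, or had sham surgery with PBS. Each of the 9 groups has 3 libraries. Every sham group is labelled day 7, so a comparison of ICH day 3 with sham also differs in day, and ages and sexes were not in the labels used here. Whether the libraries of a group come from separate animals is not stated, so p-values measure the spread between libraries. In such bulk samples fewer cells of a type and less RNA per cell cannot be told apart.

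The libraries held 41664864 to 79090595 counts and 9185 to 18408 detected genes. Under 12000 genes were detected in 7 libraries, namely every GF ICH day 7 library and replicates 1 and 2 both of ABX ICH day 7 and of GF sham. Between 31 and 50 of the 54 Rab genes had counts in a library, with 32, 38 and 31 in GF ICH day 7. The 10 microglia markers, such as Cx3cr1 and P2ry12, had counts in every library and summed to 24220 to 111700 CPM (counts scaled to a common library size by TMM factors). In GF ICH day 7 against GF sham 4 of the 10 were lower by the edgeR test, and the other 6 did not pass. The log2 fold changes were −4.04 for Cx3cr1 (edgeR adjusted p = 3.62e-05) and −5.94 for Csf1r (edgeR adjusted p = 0.000569). They were −2.28 for C1qa (edgeR adjusted p = 0.000834) and −3.51 for Tmem119 (edgeR adjusted p = 0.00323). The 9 neutrophil markers summed to 919 to 3803 CPM in GF ICH day 7, against 199 to 895 CPM in GF sham, with Mmp9 at 0 in both groups. The 7 monocyte markers summed to 310 to 1876 CPM in GF ICH day 7, against 4.95 to 615 CPM in GF sham, where F13a1 alone gave 611 CPM of the highest sum. The part of these markers and cells in the GF ICH day 7 results was not tested.

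Levels per length placed Rab7, the main Rab of late endosomes and lysosomes, first of the 54 genes, with a mean of 186 CPM per kb of exon and a range over libraries of 70.3 to 703. Rab2a, which works at the Golgi, followed with 181 CPM per kb (74.0 to 567), and Rab11a, a Rab of recycling endosomes, with 102 (2.03 to 311). Rab32, found on phagosomes and lysosome-related organelles, was the highest phagosomal gene at 92.5 CPM per kb (1.74 to 295). Rab8a, which carries cargo to the cell surface, was the highest secretory gene at 42.3 CPM per kb (0.265 to 186). The ranges of these neighbours in the order overlap. At the low end, Rab3c, a Rab of synaptic vesicles, averaged 0.0038 CPM per kb, and Rab27b, of secretory granules, 0.0006, with 24 of 27 libraries at 0. The 8 neuron markers summed to 0 to 49.2 CPM.

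**Figure D1:**
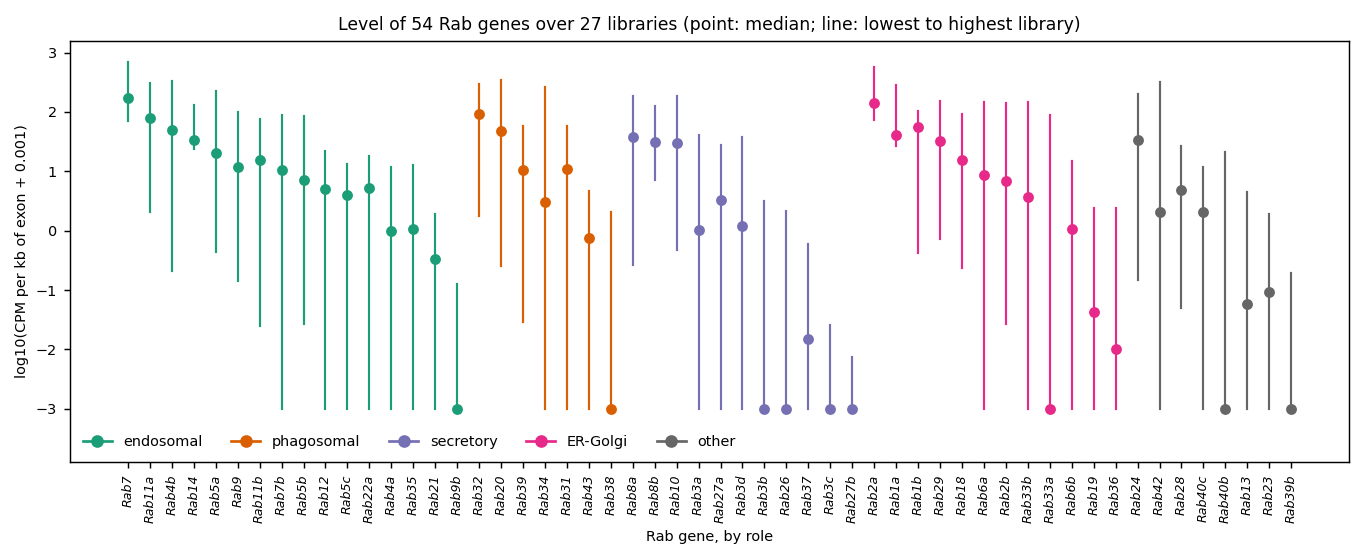
Level of each of the 54 Rab genes over 27 libraries, as log10 of CPM per kb of exon plus 0.001. Points are medians and lines run to the lowest and highest library, coloured by role. Each role holds both abundant genes, such as Rab7, Rab32, Rab8a and Rab2a, and genes with most libraries at 0.

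Among the endosomal genes, Rab7b was higher after hemorrhage in all 3 microbiota conditions. Rab7b acts between late endosomes, lysosomes and the Golgi, and in macrophages it is known to limit Toll-like receptor signalling. In ABX ICH day 7 it had 408, 271 and 116 CPM, and in ABX ICH day 3 28.9, 88.9 and 55.6 CPM, against 0, 0.272 and 0.314 CPM in ABX sham. In GF ICH day 7 it had 135, 28.5 and 0.0841 CPM, and in GF ICH day 3 47.4, 101 and 70.2 CPM, against 1.69, 0.784 and 0.4505 CPM in GF sham. In SPF ICH day 7 it had 48.0, 52.8 and 81.6 CPM, and in SPF ICH day 3 97.0, 115 and 71.4 CPM, against 5.785, 0.563 and 0.849 CPM in SPF sham. Every ICH library therefore lay above every sham library of its condition, except replicate 3 of GF ICH day 7, which lay below all 3 GF shams. Of the 54 genes it had such a separation in the most comparisons, 5 of 6, followed by Rab32 in 4.

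The rise of Rab7b passed the edgeR test at day 7 in ABX mice (log2 fold change 10.40 ± 1.96 SE, adjusted p = 0.00798) and in GF mice (5.81 ± 1.62, adjusted p = 0.0183). It did not pass the edgeR test within SPF mice, at 4.66 ± 1.53 on day 7 (adjusted p = 0.897) and 5.30 ± 1.58 on day 3 (adjusted p = 0.582), nor on day 3 in ABX (8.20 ± 1.80, adjusted p = 0.0856) or GF mice (6.23 ± 1.65, adjusted p = 0.513). With DESeq2, Rab7b passed in all 6 comparisons, with adjusted p between 6.27e-14 for ABX ICH day 7 and 0.0113 for SPF ICH day 7. The mean of the responses in ABX, GF and SPF mice, a comparison added after the data were seen, was 6.96 ± 0.98 on day 7 (edgeR adjusted p = 7.35e-05) and 6.58 ± 0.97 on day 3 (edgeR adjusted p = 0.000258). Those means stayed past the threshold when any of the 27 libraries was left out. The call within ABX mice ended without any 1 of the ABX sham libraries (highest adjusted p = 0.0736), and that within GF mice without GF ICH day 7 replicate 1, GF sham replicate 2 or GF sham replicate 3 (highest adjusted p = 0.0858, both edgeR). By the edgeR interaction test the response on day 7 was 5.74 ± 2.00 larger in ABX than in SPF mice (adjusted p = 0.369) and 1.15 ± 1.87 larger in GF than in SPF mice (adjusted p = 0.789), and neither difference passed.

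Rab7b lies on chromosome 1 at 131688695 to 131715439, plus strand (GRCm38), with no annotated overlapping gene and none of its 100-base words in transcripts of other genes. The summed level of markers of border-associated macrophages, which live at the brain's surfaces, was also higher after hemorrhage in several groups. Their 7 markers summed to 57.3 to 151 CPM in SPF ICH day 7 and 52.0 to 170 CPM in SPF ICH day 3, against 0.897 to 8.80 CPM in SPF sham, with counts in all 3 libraries for 5, 5 and 4 of the 7 in that order. In ABX mice the sum was 2.04 to 214 CPM in ICH day 7 and 48.0 to 159 CPM in ICH day 3, against 4.59 to 22.1 CPM in sham, and in GF mice 2.78 to 72.2 CPM in ICH day 7 and 34.3 to 100.2 CPM in ICH day 3, against 11.8 to 616 CPM in sham. The marker sum and Rab7b did not go together in every library: ABX ICH day 7 replicate 1 had 408 CPM of Rab7b with a marker sum of 2.04 CPM, and GF sham replicate 1 had 1.69 CPM of Rab7b with a sum of 616 CPM, nearly all from F13a1. Of the 7 markers, Lyve1 was at 0 in 22 and Cd163 in 19 of 27 libraries, and F13a1 is also among the monocyte markers. The part of border-associated macrophages in the Rab7b result was not tested beyond these values.

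**Figure D2:**
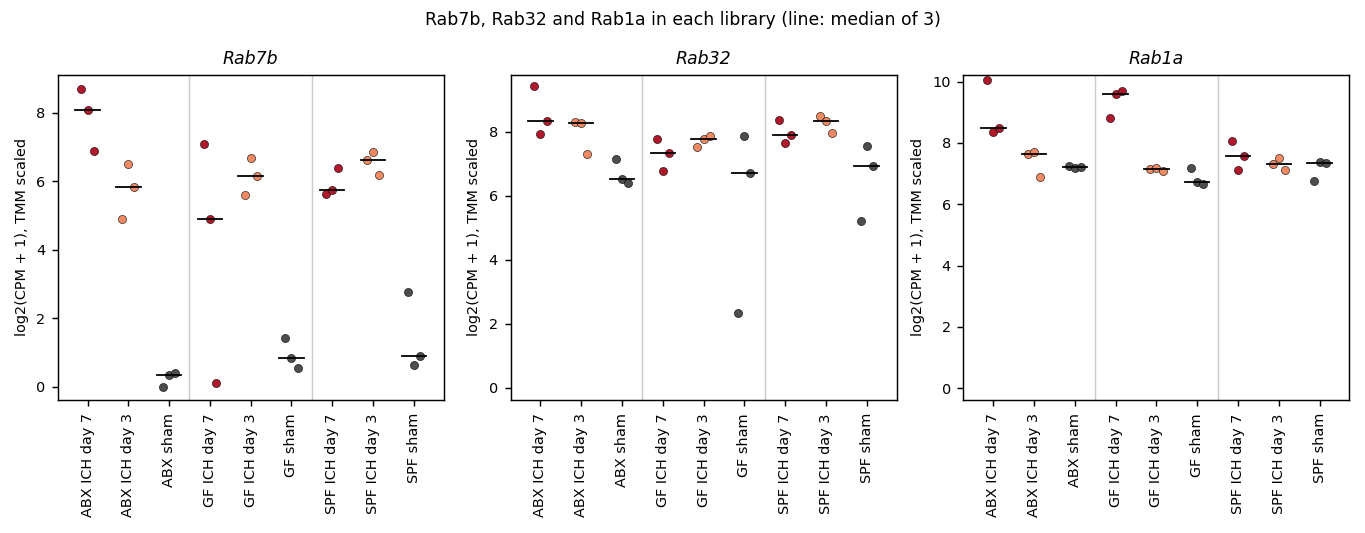
Level of Rab7b, Rab32 and Rab1a in each library, as log2(CPM + 1) after TMM scaling. Each point is 1 library and each line the median of a group of 3, with ICH day 7, ICH day 3 and sham side by side within ABX, GF and SPF mice. Rab7b is below 6 CPM in the 9 sham libraries and at 0.0841 CPM in 1 of 3 GF ICH day 7 libraries.

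Rab7 itself, the highest endosomal gene by CPM per kb of exon, passed the edgeR test in no comparison. It had 465, 351 and 449 CPM in SPF ICH day 7 and 509, 472 and 494 CPM in SPF ICH day 3, against 184 to 312 CPM in SPF sham, without overlap (edgeR log2 fold change 0.65 ± 0.46, adjusted p = 1, and 0.87 ± 0.46, adjusted p = 0.667). In GF mice it had 326 to 595 CPM in ICH day 7 and 424 to 468 CPM in ICH day 3, against 1836, 611 and 364 CPM in GF sham. GF sham replicate 1 holds the highest Rab7 level of all libraries. Without libraries under 12000 detected genes the GF ICH day 3 value changes sign, at 0.303 against −1.061 with them, but that setting leaves 1 GF sham library, whose spread is assumed to be that of the other groups. Rab14, which connects the Golgi with early endosomes and is held on some phagosomes, had 948, 1111 and 756 CPM in GF ICH day 7, against 410, 422 and 320 CPM in GF ICH day 3. That rise passed the edgeR test (1.29 ± 0.42, adjusted p = 0.0409) but turned to −0.331 with offsets for transcript GC content, and it was lost without any 1 of 11 libraries (highest adjusted p = 0.12). The call also ended with DESeq2 size factors, with no filter and with DESeq2 itself.

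Rab11b, a Rab of recycling endosomes on chromosome 17 (33742484 to 33760530, minus strand, GRCm38), was nearly absent from GF ICH day 7. It had 0.147, 0.564 and 0.357 CPM there, against 135, 96.7 and 125 CPM in GF ICH day 3, 475, 50 and 76.9 CPM in GF sham and 55.0, 103 and 96.3 CPM in SPF ICH day 7. All 3 GF ICH day 7 libraries lay below all libraries of those groups. The fall was −9.13 ± 1.56 against GF sham (edgeR adjusted p = 0.000663), −8.37 ± 1.51 against GF ICH day 3 (edgeR adjusted p = 0.00138) and −7.88 ± 1.48 against SPF ICH day 7 (edgeR adjusted p = 0.00292). ABX ICH day 7 was split, with 2.23 and 0.686 CPM in replicates 1 and 2 and 127 CPM in replicate 3, against 50.1 to 98.2 CPM in ABX sham. In ABX and SPF mice on day 3 Rab11b did not overlap sham and lay above it, at 102 to 133 CPM in ABX ICH day 3 against 50.1 to 98.2 CPM in ABX sham, and 111 to 129 CPM in SPF ICH day 3 against 55.9 to 105 CPM in SPF sham, without passing the edgeR test (0.75 ± 1.10 and 0.69 ± 1.10, adjusted p = 1 for each). Rab11b shares 10.4% of its words with the pseudogene Rab11b-ps2 and the overlapping Gm17251. Rab11b-ps2 was also low in GF ICH day 7, at 0.0841 to 0.226 CPM, against 3.38 to 31.3 CPM in GF sham.

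Rab35, which returns cargo from early endosomes to the surface, was a low gene with 0 counts in all 3 GF ICH day 7 libraries, against 0.322, 36.4 and 2.27 CPM in GF sham. Taking 3 counts per library as the floor, its mean was at least 213-fold lower in GF ICH day 7 than in GF sham, at least 87.8-fold lower than in GF ICH day 3 and at least 56.9-fold lower than in SPF ICH day 7. Replicate 2 of each of those groups carries its bound, which without it was 21.3-fold, 53.2-fold and 26.7-fold in the same order. The call against GF sham (edgeR adjusted p = 0.0153) ended without GF ICH day 7 replicate 3 (adjusted p = 0.0522). Those against GF ICH day 3 (edgeR adjusted p = 0.0226) and SPF ICH day 7 (edgeR adjusted p = 0.0296) ended without any 1 of the GF ICH day 7 libraries, and the second also without SPF ICH day 7 replicate 2 (highest adjusted p = 0.0682 and 0.0852). The call against SPF ICH day 7 also ended with GC offsets, and both with the replicate block and GC offsets together. Of the other endosomal genes, Rab4a, Rab4b, Rab5a, Rab5b, Rab5c, Rab9, Rab11a, Rab12, Rab21 and Rab22a were tested and none passed the edgeR test in any of the 19 comparisons, and Rab9b was too low to test. DESeq2 called 6 endosomal genes that edgeR did not in at least 1 comparison (Rab4a, Rab5a, Rab7, Rab9, Rab21, Rab22a).

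The phagosomal genes moved apart from each other. Rab32 was higher in every ICH library than in every sham library of the same condition in ABX and SPF mice. It had 690, 240 and 319 CPM in ABX ICH day 7 and 317, 306 and 156 CPM in ABX ICH day 3, against 142, 89.9 and 83.0 CPM in ABX sham. In SPF mice it had 332, 199 and 240 CPM in ICH day 7 and 356, 319 and 247 CPM in ICH day 3, against 36.1, 189 and 120 CPM in sham. In GF mice the groups overlapped, with 219, 110 and 159 CPM in ICH day 7 and 182, 219 and 233 CPM in ICH day 3, against 4.07, 230 and 104 CPM in sham. None of these differences passed the edgeR test, the nearest being ABX ICH day 7 at 1.99 ± 0.80 (adjusted p = 0.198).

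Rab20, which takes part in phagosome maturation in macrophages, had 0.4, 0.414 and 0.357 CPM in GF ICH day 7. It had 70.5, 66.2 and 50.4 CPM in GF ICH day 3, 384, 72.5 and 57.2 CPM in GF sham and 84.2, 67.1 and 89.2 CPM in SPF ICH day 7. No library of those groups came near the GF ICH day 7 level. The fall was −8.77 ± 1.27 against GF sham (edgeR adjusted p = 0.000151), −7.31 ± 1.197 against GF ICH day 3 (edgeR adjusted p = 0.000627) and −7.67 ± 1.22 against SPF ICH day 7 (edgeR adjusted p = 0.000992). ABX ICH day 7 spread over 485, 73.0 and 6.196 CPM, against 66.8, 69.9 and 50.02 CPM in ABX sham (1.60 ± 0.93, edgeR adjusted p = 0.274). In SPF mice on day 3 Rab20 lay below sham without overlap, at 41.6 to 60.7 CPM in ICH against 70.3 to 97.8 CPM in sham, and did not pass (edgeR adjusted p = 1). Rab20 lies on chromosome 8 at 11453518 to 11478710, minus strand. E230013L22Rik, on the opposite strand from a shared promoter region, shares 20.0% of the words of Rab20 and was at 0 in GF ICH day 7, against at most 2.28 CPM in GF sham.

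The calls of Rab20 and Rab11b in GF ICH day 7 held under all 6 other settings and without each of the 27 libraries in turn. No other Rab genes kept their calls so in all 4 comparisons of GF ICH day 7. Promoters of Rab20, Rab11b and Rab7b were looked up. None was held for Rab7b, so those of Rab20 and Rab11b are shown. RefSeq on GRCm38.p6 gives 300 bases, of which 250 lie before the gene start, and capitals mark a palindromic E-box.
Rab20, chr8:11478591-11478890, minus strand: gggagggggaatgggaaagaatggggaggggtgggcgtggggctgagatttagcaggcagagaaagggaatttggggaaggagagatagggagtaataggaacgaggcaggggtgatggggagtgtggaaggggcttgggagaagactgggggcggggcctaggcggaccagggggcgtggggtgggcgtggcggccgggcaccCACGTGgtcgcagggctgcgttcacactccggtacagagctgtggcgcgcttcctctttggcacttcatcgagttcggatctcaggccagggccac
Rab11b, chr17:33760437-33760736, minus strand: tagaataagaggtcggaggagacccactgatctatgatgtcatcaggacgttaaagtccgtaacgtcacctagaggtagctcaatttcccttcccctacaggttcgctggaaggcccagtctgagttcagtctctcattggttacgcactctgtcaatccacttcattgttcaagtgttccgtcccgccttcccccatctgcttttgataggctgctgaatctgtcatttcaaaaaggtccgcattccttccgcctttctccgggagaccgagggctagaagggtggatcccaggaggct
The Rab20 window holds the E-box CACGTG, a motif bound by basic helix-loop-helix factors, while that of Rab11b holds none. Both strands were searched for CACGTG, the AP-1 motif TGANTCA, the PU.1 motif GAGGAAGT and the antioxidant response core TGACNNNGC. They were present in 7.15%, 7.81%, 3.202% and 12.4% of 32851 mouse promoters in that order, and in 6, 2, 2 and 9 of 54 promoters found for 45 of the Rab genes. GC content was 64.3% for the Rab20 and 51.3% for the Rab11b promoter, against a median of 52.7% over genes. A match is only a description of the letters.

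**Figure D3:**
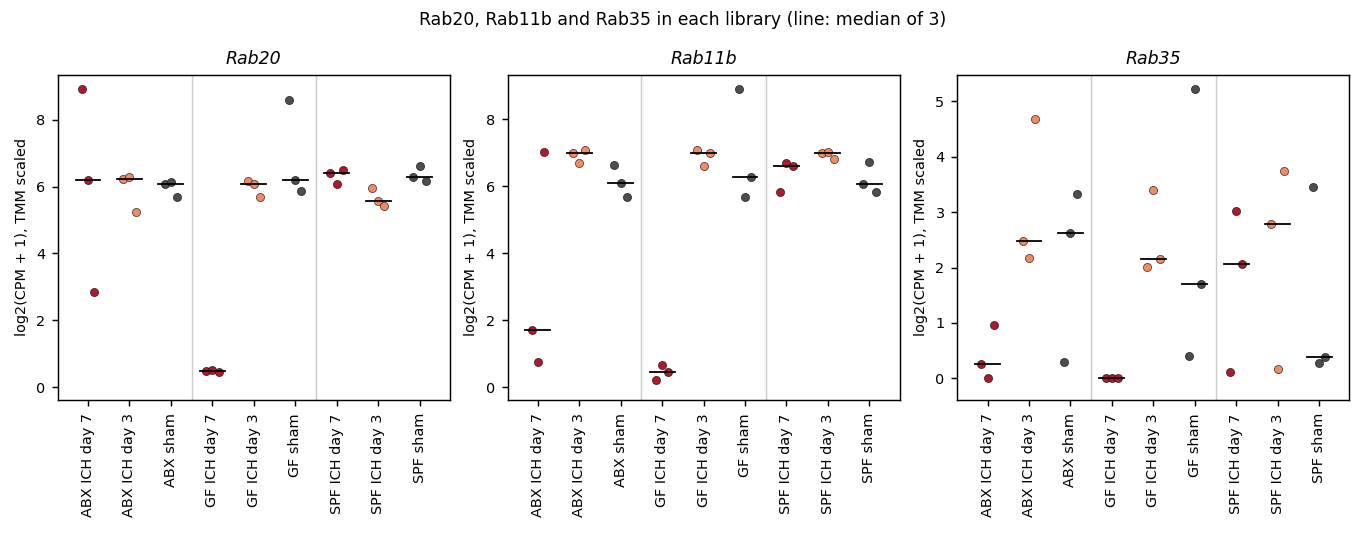
Level of Rab20, Rab11b and Rab35 in each library, as log2(CPM + 1) after TMM scaling. Points are libraries and lines the medians of 3, with ICH day 7, ICH day 3 and sham side by side within ABX, GF and SPF mice. All 3 GF ICH day 7 libraries lie near or at 0 for each gene, and ABX ICH day 7 is spread widely.

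Rab43, a Rab of the Golgi and of phagosomes that serves antigen cross-presentation in mouse dendritic cells, had 0 counts in the 3 GF ICH day 7 libraries, against 15.6, 25.7 and 19.6 CPM in GF ICH day 3. That is at least 334-fold lower (edgeR adjusted p = 0.00874), and at least 136-fold lower than in SPF ICH day 7 (edgeR adjusted p = 0.0148), which had 3.90, 9.155 and 11.8 CPM. GF sham had 0, 0.109 and 14.3 CPM of Rab43, and the call against it (edgeR adjusted p = 0.0151) rests on replicate 3, without which it was lost (−4.78, adjusted p = 0.137). That call was also lost with the replicate block and GC offsets together. It was lost without GF ICH day 7 replicate 3 too, as was the call against SPF ICH day 7 (adjusted p = 0.0513). Rab43 shares 73.8% of its words with the overlapping Gm45140, so its counts are uncertain. Gm45140 had at most 0.021 CPM in GF ICH day 7, against up to 72.8 CPM in GF sham. Rab43 was also without overlap below sham in ABX ICH day 7 (0, 0 and 1.94 CPM, against 4.03 to 11.6 CPM), in SPF ICH day 7 (3.90 to 11.8 CPM, against 13.8 to 17.5 CPM) and in SPF ICH day 3 (0.866 to 3.28 CPM, against 13.8 to 17.5 CPM), with no edgeR adjusted p under 0.278. In GF ICH day 3 it went the other way, with all libraries above all GF shams, and did not pass the edgeR test. Rab31, Rab34, Rab38 and Rab39 passed the edgeR test in no comparison, while DESeq2 called Rab31 and Rab34 in at least 1. Rab39 lay below sham without overlap in 2 of 6 comparisons. These were SPF ICH day 3 (7.01 to 27.2 CPM, against 38.4 to 77.7 CPM in sham) and ABX ICH day 3 (19.3 to 34.5 CPM, against 45.1 to 107 CPM in sham). Rab31, known in early endosomes and phagocytosis, had 13.6, 0.263 and 0 CPM in GF ICH day 7, against 40.6 to 88.5 CPM in GF sham (−3.67 ± 1.63, edgeR adjusted p = 0.126).

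No secretory gene passed the edgeR test in any of the 19 comparisons, while DESeq2 called Rab3a, Rab3d, Rab10 and Rab26 in at least 1. Rab8a had 868, 172 and 498 CPM in ABX ICH day 7, against 176 to 185 CPM in ABX sham (1.52 ± 0.98, edgeR adjusted p = 0.311), and 145, 118 and 1.24 CPM in GF ICH day 7, against 3.34, 127 and 150 CPM in GF sham. Its relative Rab8b, which also serves surface delivery, had 537, 397 and 33.3 CPM in ABX ICH day 7, against 123 to 166 CPM in ABX sham (1.12 ± 0.71, edgeR adjusted p = 0.306). Without libraries under 12000 detected genes, which leaves only replicate 3 of ABX ICH day 7, its direction turned (−2.24, edgeR adjusted p = 0.0292). In GF ICH day 7 Rab8b had 310, 598 and 157 CPM, without overlap above 82.6 to 94.3 CPM in GF ICH day 3 (2.01 ± 0.73, edgeR adjusted p = 0.0618). Rab10, which carries receptors to the surface of macrophages, had 59.5, 35.4 and 170 CPM in GF ICH day 7, against 662, 110 and 80.9 CPM in GF sham (−1.69 ± 1.01, edgeR adjusted p = 0.226). The libraries of these groups overlap for Rab10. Rab27a, which docks secretory lysosomes, had 0.0842, 0 and 108 CPM in GF ICH day 7, against 0, 12.7 and 9.13 CPM in GF sham.

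Of the ER-Golgi genes, Rab1a rose and Rab6b fell. Rab1a, which drives transport out of the endoplasmic reticulum, had 1065, 323 and 360 CPM in ABX ICH day 7, against 144 to 150 CPM in ABX sham, and 445, 765 and 826 CPM in GF ICH day 7, against 99.9 to 143 CPM in GF sham. The libraries did not overlap in either condition. The rise was 1.99 ± 0.48 in ABX mice (edgeR adjusted p = 0.0446) and 2.56 ± 0.49 in GF mice (edgeR adjusted p = 0.00171), and Rab1a was also higher in GF ICH day 7 than in GF ICH day 3 (2.28 ± 0.49, edgeR adjusted p = 0.00422) and SPF ICH day 7 (1.77 ± 0.48, edgeR adjusted p = 0.0184). With GC offsets all 4 of these calls ended, and the value against GF sham was 0.891 (edgeR adjusted p = 0.206). The calls in ABX mice and against SPF ICH day 7 also ended with DESeq2 size factors and with no filter, and that in ABX mice with the replicate block. The call in ABX mice was lost without any 1 of 19 libraries (highest adjusted p = 0.262). The call against SPF ICH day 7 was lost without GF ICH day 7 replicate 3 or SPF ICH day 7 replicates 2 or 3 (highest adjusted p = 0.0777). In SPF mice Rab1a had 137 to 269 CPM in ICH day 7 and 139 to 179 CPM in ICH day 3, against 108 to 164 CPM in sham.

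Rab2a had 424, 650 and 796 CPM in GF ICH day 7, against 272, 213 and 222 CPM in GF ICH day 3 (1.40 ± 0.41, edgeR adjusted p = 0.0228). That call too was lost with GC offsets, and also with DESeq2 size factors and with no filter. It was lost as well without GF ICH day 3 replicates 2 or 3 or GF ICH day 7 replicate 3 (highest adjusted p = 0.0783). In ABX ICH day 7 Rab2a had 699, 775 and 1210 CPM, without overlap above 259 to 372 CPM in ABX sham, but did not pass (1.45 ± 0.41, edgeR adjusted p = 0.0849). Rab6b, an isoform best known from neurons that works in traffic back to the Golgi, had 0, 0.0752 and 0.0841 CPM in GF ICH day 7, against 0.403, 74.4 and 9.84 CPM in GF sham (−8.99 ± 2.34, edgeR adjusted p = 0.0124). It was also lower than in GF ICH day 3, which had 5.42 to 11.7 CPM (−7.33 ± 2.18, edgeR adjusted p = 0.0266), and in SPF ICH day 7, which had 3.61 to 11.5 CPM (−7.15 ± 2.16, edgeR adjusted p = 0.032). Both of those calls ended with GC offsets and with no filter. They were also lost without any 1 of the GF ICH day 7 libraries, and the second without SPF ICH day 7 replicates 1 or 2 too (highest adjusted p = 0.0755 and 0.0879). In ABX ICH day 7 Rab6b had 0.142, 0.0722 and 1.29 CPM, below all ABX shams at 2.91 to 26.8 CPM (−4.55 ± 1.91, edgeR adjusted p = 0.206). Rab29, known from the Golgi and lysosomes under stress, had 91.0, 123 and 222 CPM in GF ICH day 7, above all GF shams at 1.37 to 49.1 CPM, and did not pass. It lay above sham without overlap in 3 of 6 comparisons. ABX ICH day 7 was spread, with 1.04, 67.4 and 10.7 CPM of Rab29, against 43.9 to 48.0 CPM in ABX sham. Rab1b, Rab2b, Rab6a, Rab18, Rab19, Rab29, Rab33b and Rab36 passed the edgeR test in no comparison, DESeq2 called Rab2b, Rab19, Rab33b and Rab36 in at least 1, and Rab33a was too low to test.

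Of the 8 genes with other sites, Rab42 passed the edgeR test, Rab13, Rab23, Rab24, Rab28, Rab40b and Rab40c did not, and Rab39b was too low to test. DESeq2 called Rab13, Rab23, Rab28 and Rab40c in at least 1 comparison. Rab42 had 0 counts in GF ICH day 7, against 2.56, 11.4 and 2.28 CPM in GF ICH day 3 (at least 88.8-fold lower, edgeR adjusted p = 0.0334) and 6.67, 3.84 and 3.12 CPM in SPF ICH day 7 (at least 74.7-fold lower, edgeR adjusted p = 0.0392). Without GF ICH day 3 replicate 2 the first bound was 39.8-fold. Both calls ended with GC offsets and without any 1 of the GF ICH day 7 libraries, and the second also with the replicate block. The first was also lost without GF ICH day 3 replicate 2 and the second without any 1 of the SPF ICH day 7 libraries (highest adjusted p = 0.0897 and 0.104). A single library of ABX ICH day 7 held 241 CPM of Rab42, against 0 and 1.55 CPM in the other two of that group and 0.063 to 1.24 CPM in ABX sham.

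Set beside all genes, calls among the Rab genes were near the background share in GF ICH day 7 and absent in 4 of the other comparisons of ICH with sham. By edgeR 2 of 50 were higher and none lower in ABX ICH day 7, where 0.945% of 17573 genes were called, 0.734% as higher and 0.211% as lower. In GF ICH day 7, 2 were higher and 5 lower, where 14.4% of genes were called (1.70% higher and 12.7% lower), so the 7 of 50 are about the share of all genes. None of 50 was called by edgeR in ABX ICH day 3 (background 0.125%), GF ICH day 3 (0.00569%), SPF ICH day 7 (0.0797%) or SPF ICH day 3 (0.102%). At unadjusted p under 0.05 there were 2, 5, 1 and 1 in that order, against 8.27%, 5.29%, 5.01% and 7.26% of all genes. DESeq2 called 2, 2, 1 and 1. For DESeq2, here and below, the share of all genes called is not given, so its counts cannot be set beside a background. For day 7 against day 3 none was called by edgeR in ABX mice (0.728%; 6 at unadjusted p under 0.05, where 20.8% of genes were, and 9 by DESeq2) or SPF mice (0%; 0 at unadjusted p, where 4.09% were, and 0 by DESeq2), and in GF mice 3 were higher (Rab1a, Rab2a, Rab14) and 6 lower, where 15.3% of genes were called (1.83% higher and 13.4% lower). In the mean over conditions added after the data were seen, 1 was called on day 3 (1.3% of all genes, 1.04% higher and 0.267% lower) and 3 higher and 5 lower on day 7 (20.2%, 3.72% higher and 16.5% lower), and the GF libraries enter that mean.

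The median log2 fold change of the 50 genes in GF ICH day 7 against GF sham was −1.58, or −1.43 with genes at 0 counts set to their bound, against −2.10 over all 17573 genes. By role it was −1.37 for 15 endosomal, −6.04 for 7 phagosomal (−3.67 with bounds), −1.54 for 10 secretory (−1.43 with bounds), −0.06 for 11 ER-Golgi and −5.42 for 7 other genes (−3.30 with bounds). With the phagosomal group widened to 19 Rab genes known on phagosomes, its median was −1.69, and −1.37 with bounds. In ABX ICH day 7 the median was 0.61 over the 50 genes, against −0.79 over all genes, with 0.61 for endosomal, 0.62 for phagosomal, 0.91 for secretory (0.80 with bounds) 0.49 for ER-Golgi and −0.86 for other genes. With library size alone, the mean log2 scaling of ABX ICH day 7 against ABX sham moved by −0.91, for all genes alike. That is larger in size than the 0.61 of the Rab genes, and the medians of the Rab genes were not recomputed under it. In SPF ICH day 7 it was −0.02 for the 50 and in SPF ICH day 3 0.12, against −0.03 and −0.07 over all genes, and by role on day 3 it was 0.05 for endosomal, −0.62 for phagosomal (−0.01 for the widened list of 19), 0.45 for secretory, 0.00 for ER-Golgi and 0.46 for other genes. Libraries of ICH and sham did not overlap for 5 genes higher and 5 lower in ABX ICH day 7 (7.8% and 22.4% of all genes), 5 and 7 in GF ICH day 7 (5.34% and 11.6%), 3 and 1 in SPF ICH day 7 (5.94% and 4.62%), 5 and 5 in ABX ICH day 3 (9.74% and 10.1%), 5 and 1 in GF ICH day 3 (10.8% and 2.98%), and 5 and 3 in SPF ICH day 3 (9.18% and 6.98%).

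**Figure D4:**
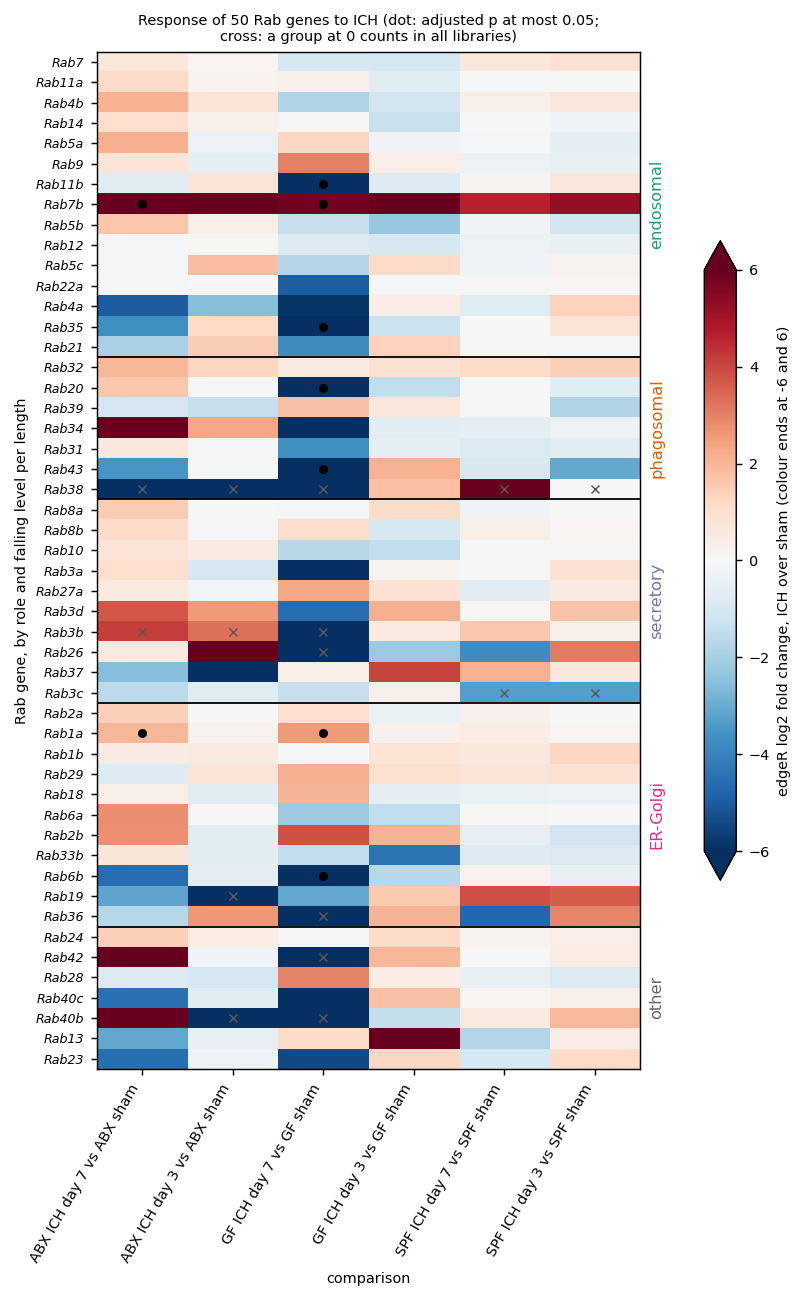
edgeR log2 fold change of ICH over sham for the 50 tested Rab genes (rows, by role and falling level per length) in 6 comparisons (columns). Red is higher and blue lower after ICH, with colours ending at −6 and 6, dots mark adjusted p of at most 0.05, and crosses mark other cells where a group had 0 counts in all libraries. Rab7b is red in all 6 columns, and 5 of the 9 dots are falls in GF ICH day 7.

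Comparisons of the microbiota conditions gave calls only for GF ICH day 7. Against SPF ICH day 7, Rab1a was higher and 6 genes (Rab6b, Rab11b, Rab20, Rab35, Rab42, Rab43) were lower, where edgeR called 12.9% of all genes (1.08% higher and 11.8% lower). None of 50 was called by edgeR in ABX ICH day 7 against SPF ICH day 7 (background 0.0854%), ABX ICH day 3 against SPF ICH day 3 (0%), GF ICH day 3 against SPF ICH day 3 (0%), ABX sham against SPF sham (0%) or GF sham against SPF sham (0.00569%). At unadjusted p under 0.05 there were 5, 1, 0, 1 and 3 in that order, against 19.4%, 4.89%, 3.46%, 4.05% and 6.22% of all genes, and DESeq2 called 6, 1, 0, 0 and 1. The response to hemorrhage at day 7 differed between GF and SPF mice by the edgeR interaction test for 4 genes, all lower in GF, where 7.04% of all genes were called (6.76% lower). They were Rab20 (−8.75 ± 1.48, adjusted p = 0.0018), Rab11b (−9.29 ± 1.81, adjusted p = 0.00452), Rab6b (−9.20 ± 2.71, adjusted p = 0.0423) and Rab35 (−12.55 ± 3.69, adjusted p = 0.0435, a fitted value with a group at 0 that is no bound). The edgeR interaction called none for GF on day 3 (0%), ABX on day 7 (0%) or ABX on day 3 (0%). At unadjusted p under 0.05 there were 1, 6 and 1, against 5.68%, 12.7% and 5.58% of all genes, and DESeq2 called 0, 2 and 1. The interaction calls of Rab6b and Rab35 were lost without any 1 of 18 and 19 libraries (highest adjusted p = 0.122 and 0.118). These comparisons share libraries and are not independent of each other.

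Transcript GC content moved with the GF ICH day 7 differences. Over the 50 Rab genes GC content of the longest transcript and log2 fold change had a Spearman correlation of −0.57 against GF sham, −0.66 against GF ICH day 3 and −0.60 against SPF ICH day 7, and over 1656 abundant genes in the same libraries it was −0.53, −0.73 and −0.63. Genes share their libraries here, so these are descriptions. In SPF ICH day 7 against SPF sham the value was 0.01 for the 50 and 0.17 for the abundant genes. A relation was not confined to GF ICH day 7. For the 50 it was 0.43 in SPF ICH day 3 against SPF sham and −0.40 in SPF ICH day 7 against SPF ICH day 3. The called genes that fell had GC contents of 56.1% (Rab20), 48.1% (Rab11b), 54.2% (Rab35), 56.4% (Rab43), 51.4% (Rab6b) and 59.1% (Rab42), and those that rose 41.95% (Rab1a), 44.4% (Rab2a), 43.0% (Rab14) and 49.1% (Rab7b). With GC offsets Rab20 remained lower at −6.39 (edgeR adjusted p = 0.00122) and Rab11b at −9.19 (edgeR adjusted p = 0.000919) against GF sham. Of the other genes called there, Rab6b, Rab7b, Rab35 and Rab43 also stayed past the threshold (edgeR adjusted p = 0.0234, 0.0192, 0.0276 and 0.0379). Rab1a did not (edgeR adjusted p = 0.206). The offsets left a correlation of 0.227 over abundant genes and −0.269 over the 50 Rab genes in that comparison.

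**Figure D5:**
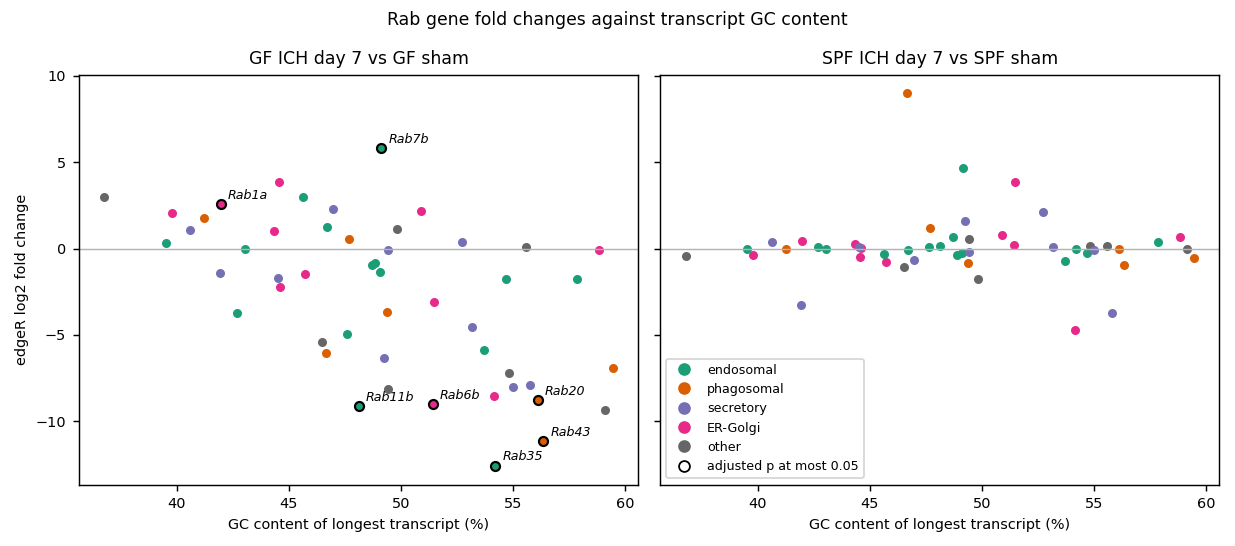
edgeR log2 fold change of the 50 tested Rab genes (y axis) against GC content of the longest transcript in % (x axis), coloured by role, for GF ICH day 7 against GF sham (left) and SPF ICH day 7 against SPF sham (right). Ringed points have adjusted p of at most 0.05. On the left fold changes are lower at higher GC content (Spearman −0.57), and Rab7b at 49.1% stands above the rest.

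Genes of the proteins that load, turn off and read Rab GTPases were counted in the same way. Of 8 recycling and prenylation genes, 25 exchange factors, 24 GTPase-activating proteins and 35 effectors and kinases, 8, 23, 24 and 29 were tested. None was called by edgeR in any ICH against sham comparison of ABX or SPF mice, nor in GF ICH day 3. In GF ICH day 7 against GF sham, 0, 0, 1 and 1 were higher and 3, 5, 7 and 7 lower in the same order, where 1.70% of all genes were called higher and 12.7% lower. The list medians there were −4.54, −3.33, −5.79 and −5.59, against −2.10 over all genes. In ABX ICH day 7 against ABX sham they were 0.09, −1.67, −3.23 and −2.67, against −0.79 over all genes. Rabif, a chaperone of nucleotide-free Rabs, averaged 0.13 ± 0.0878 CPM in GF ICH day 7, against 160.5 ± 249 CPM in GF sham (−10.25 ± 2.30, edgeR adjusted p = 0.00493), and Rab3ip, an exchange factor for Rab8, 0.196 ± 0.14 CPM in GF ICH day 7, against 123 ± 186 CPM in GF sham (−9.27 ± 1.81, edgeR adjusted p = 0.00195). Rab3il1, a relative of Rab3ip and the most abundant of these genes in GF sham, averaged 204 ± 161 CPM in GF ICH day 7, against 1191 ± 956 CPM in GF sham (−2.55 ± 0.70, edgeR adjusted p = 0.0174). Tbc1d15, which inactivates Rab7, averaged 378 ± 258 CPM in GF ICH day 7, against 17.7 ± 28.6 CPM in GF sham (4.42 ± 1.40, edgeR adjusted p = 0.0366), and Appl1, an effector of Rab5, 188 ± 196 CPM in GF ICH day 7, against 11.4 ± 9.09 CPM in GF sham (4.04 ± 1.29, edgeR adjusted p = 0.0377). Errors of these means are SD over n = 3 libraries. For Rabif, Rab3ip and Tbc1d15 the SD in GF sham exceeded the mean, as it did for Appl1 in GF ICH day 7, so libraries of those groups differed widely. Whether the calls of these named genes hold with GC offsets or without a single library was not tested.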

How the data were processed

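RNA of sorted microglia was made into libraries with a SMART-Seq v4 low-input kit and read on a NovaSeq as 150-base pairs, per the labels' protocols. Per the submitters' processing notes, the tools were HISAT2 2.0.4, StringTie 1.3.4d, cutadapt 1.9 and edgeR with the mm10 build, and the annotation, strand setting and counting of mates are not given in the sources used here. The authors deposited whole-number counts per gene for 27 libraries. Without a stated strand setting, reads of overlapping genes cannot be told apart. GENCODE M21 gave a symbol to 52073 of 56691 identifiers, and the other 4618 hold 1.27% of counts.

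From these counts, filterByExpr of edgeR 4.0.16 (R 4.3.3) kept 17573 genes with 99.94% of counts. TMM factors were 0.476 to 1.31. A single quasi-likelihood fit over 9 group means gave 19 comparisons and, added after the data were seen, 2 means over conditions, with Benjamini-Hochberg adjustment over all genes at 0.05. Each SE was taken from the F statistic. The estimate of the common biological coefficient of variation was 1.54. Where all libraries of a group were at 0, a fold bound used 3 counts per library. No label pairs equal replicate numbers, and only 1 of 108 same-numbered pairs had a correlation of deviations over 0.1, so no pairing was used. Shared words are the 100-base stretches of GENCODE transcripts of a gene that occur in transcripts of another gene.

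The members, roles and lists were chosen with earlier results of these data known. Values in each library are given for members called in any of the 19 comparisons, the 2 of smallest unadjusted p per role in ICH against sham and the highest per role by CPM per kb. They are also given for the members of smallest p in the microbiota comparisons and interactions. Of the lists, 5 called genes are named, picked after their values were seen. Rab27a, Rab29, Rab31 and Rab39 were named after their values were seen. Alternatives were DESeq2 1.42.0, its size factors, no filter, a replicate block, GC offsets (a spline with 6 degrees of freedom on genes of at least 100 CPM), both together, and leaving out each library or all libraries under 12000 detected genes. Promoters are from RefSeq.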

Additional observations from a re-analysis of the deposited data

Results flagged for a closer look

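The response to ICH at day 7 differed between GF and SPF mice for 4 of 50 tested Rab genes by the edgeR interaction test. That test called 7.04% of all genes (6.76% lower), so the 4 of 50 are about the share of all genes. The difference in log2 fold change was −8.75 for Rab20, −9.29 for Rab11b, −9.20 for Rab6b and −12.55 for Rab35. Rab20 and Rab11b kept the call without each of the 27 libraries (highest edgeR adjusted p = 0.0168 and 0.0313), while Rab6b kept it without 9 and Rab35 without 8 of them. GF ICH day 7 is also the group with 9185 to 11043 detected genes and the strongest relation to GC content, and the part of these in the differences was not tested.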

How the results depend on the processing

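Of 1494 recomputed values of named genes, 1326 kept direction and side of the threshold, 157 were no longer past it, 6 newly passed and 5 reversed. The reversals were Rab14 in GF ICH day 7 against GF ICH day 3 with GC offsets (−0.331) and with the replicate block and GC offsets (−0.340), and, without libraries under 12000 detected genes, Rab14 (0.004) and Rab7 (0.303) in GF ICH day 3 against sham and Rab8b in ABX ICH day 7 against sham (−2.236, which passed at edgeR adjusted p = 0.0292). Counts below are Rab genes called, with the count of the main edgeR fit in parentheses, and the cause of each change was not tested. The share of all genes called under each of these settings, or with a library left out, is not given here. These counts therefore do not show whether Rab genes were called more often than other genes. With DESeq2, ICH against sham gave 9 (2) in ABX day 7, 2 (0) in ABX day 3, 23 (7) in GF day 7, 2 (0) in GF day 3, 1 (0) in SPF day 7 and 1 (0) in SPF day 3. Day 7 against day 3 gave 9 (0) in ABX and 20 (9) in GF. Against SPF it gave 6 (0) for ABX day 7, 1 (0) for ABX day 3, 17 (7) for GF day 7 and 1 (0) for GF sham. Interactions gave 2 (0) for ABX day 7, 1 (0) for ABX day 3 and 11 (4) for GF day 7, and the means over conditions 16 (8) on day 7 and 2 (1) on day 3. ABX ICH day 7 against sham gave 1 (2) with DESeq2 size factors, with no filter, with GC offsets, with the replicate block and with block and GC offsets. With no filter ABX ICH day 3 gave 1 (0). The GF day 7 interaction gave 2 (4) with no filter, the replicate block, GC offsets, or both. With GC offsets, GF ICH day 7 gave 4 (9) against day 3 and 3 (7) against SPF, and with the block added 3 and 3. Without libraries under 12000 detected genes, the counts for ABX ICH day 7 were 12 (2) with sham as the base, 11 (0) with day 3, 9 (0) with SPF ICH day 7 and 6 (0) for the interaction, ABX ICH day 3 and SPF ICH day 3 gave 1 (0) each against sham, and the day 3 mean 3 (1). That setting leaves 1 library of ABX ICH day 7 and 1 of GF sham, each assumed to vary like the other groups, and no GF ICH day 7 library, so it gave no value there. DESeq2 size factors moved the mean log2 scaling of ICH against sham by −0.483 (GF, day 7), −0.269 (GF, day 3) and −0.234 (ABX, day 7). Library size alone moved it by −0.067, 0.382 and −0.91 in the same order. These are differences in scaling factors, not medians of refitted fold changes.

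Leaving out each replicate in turn, counts ran over 0 to 5 in ABX ICH day 7, 0 to 1 in ABX ICH day 3 and 5 to 11 in GF ICH day 7 against sham, 0 to 4 in ABX and 4 to 12 in GF for day 7 against day 3, 0 to 2 in ABX ICH day 7, 2 to 9 in GF ICH day 7 and 0 to 1 in GF sham against SPF, 2 to 6 in the GF day 7 interaction, and 7 to 12 in the day 7 and 1 to 1 in the day 3 mean over conditions. All others stayed at 0. Where 1 library was left out of a group, 2 remained. Same-numbered libraries had deviation correlations of −0.13 to 0.105 (median 0.007), and 12 of 27 correlated best with their own number. Whether equal numbers pair the libraries was not tested beyond these values. The replicate block changed no other count by more than 1.5 times.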
